A study of Mus musculus with 16 samples.

Results

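The comparison described here set Wdr5 knockdown (siWdr5) against Bard1 knockdown (siBard1) at day 3 of reprogramming, with 2 libraries for each knockdown and 4 of the 16 libraries of the study. Its members were all genes of the deposited table with a mean of at least 0 log2 CPM (CPM being a gene's reads scaled to a common library total) over the 16 libraries, which gave 14028 genes of 18990, and no difference between groups entered that choice. Every group started from wild-type BL6 mouse embryonic fibroblasts (MEFs, primary connective tissue cells of the embryo), reprogrammed at passage 2 after infection with an inducible tet-OSKM (STEMCCA) lentivirus, which carries Oct4, Sox2, Klf4 and c-Myc, and an rtTA lentivirus. Cells received 40 nM of pooled siRNAs against Wdr5, Bard1 or Brca1, or a non-targeting pool (nt control), and were then induced with doxycycline in medium with Chiron, an Alk5 inhibitor, ascorbic acid and LIF. RNA depleted of ribosomal RNA was sequenced at day 3 and day 6, in 2 libraries per group and day that the study describes as independent. The induced factors, the inhibitors and the transfection were therefore common to both knockdowns, and the nt control and siBrca1 libraries of the same day are given beside them as levels.

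WDR5 is a WD-repeat protein that holds together the SET1/MLL methyltransferase complexes, which methylate lysine 4 of histone H3 at active promoters. BARD1 is the obligate RING-domain partner of BRCA1, and the heterodimer ubiquitinates histone H2A and works in homologous recombination at DNA double-strand breaks. During the first days of reprogramming, fibroblasts are known to lose mesenchymal and matrix genes, to gain epithelial genes and to keep dividing, and the study asked how the loss of chromatin factors affects early reprogramming. A direct comparison of the 2 knockdowns asks which transcripts differed between them. It cannot assign a transcript to 1 factor, because Wdr5 and Bard1 mRNA were both below the nt control in both knockdowns, as given below.

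The 4 libraries held 14260205 to 17215650 reads, recovered from the steps of the deposited values. Replicates correlated at r = 0.992 across genes for siWdr5 and r = 0.990 for siBard1, and genes are not independent replicates. Positive differences below are higher in siWdr5, and a gene was called when limma's adjusted p was below 0.05 and the difference was over 1 on the log2 scale, which is 2-fold. A gene that passed had an adjusted p below 0.05, at any fold. A gene with 3 reads had 0.292 to 0.347 CPM in these libraries, because the deposited values include a small prior count, and fold changes near that level are understated.

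The siRNA strands are shown because they define the 2 groups. The siRNA library of the study listed, in the sheets read here, 2 siRNAs for each gene, and per the methods each gene was targeted by a pool of 3, so that 1 siRNA of each pool is not shown and not analysed here. The guide (antisense) strands follow without their overhangs, 5′ to 3′, with the seed (bases 2 to 8) in capitals.
Wdr5 siRNA 172500: cAUAGUUUggcuuaacugg
Wdr5 siRNA 172501: cACGGUUGaaaugaacggc
Bard1 siRNA 60227: aGAAGAUGugcucacaucc
Bard1 siRNA 159810: uUGUCGGUuuaucuugagg
The seeds of these 4 differed from each other. The first Wdr5 siRNA matched coding sequence at chr2:27519355-27519373 on the plus strand (GRCm38, GENCODE vM21), and the second crossed an exon junction, with its ends at bases 27520909 and 27525121 of chromosome 2. The Bard1 siRNAs matched coding exons on the minus strand of chromosome 1, at chr1:71089475-71089493 for siRNA 60227 and chr1:71088167-71088185 for siRNA 159810. No transcript of another gene held a full match to any of these 4, and the third siRNA of each pool was not checked.

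At day 3 Wdr5 mRNA was lowest in the libraries labelled siWdr5, whereas Bard1 mRNA was not lowest in those labelled siBard1. Wdr5 had 50.6 and 55.3 CPM in the siWdr5 libraries, 96.6 and 91.9 CPM in the siBard1 libraries and 132 and 130 CPM in the nt control. Both siWdr5 libraries lay below every other day 3 library, and the mean was 40.4% of the nt control in siWdr5 and 71.9% in siBard1. Wdr5 was lower in siWdr5 than in siBard1 by a log2 difference of -0.83 ± 0.10 (SE, limma, adjusted p = 0.00038), a 1.78-fold difference that passed but was under the 2-fold limit of a call. Bard1 had 13.9 and 15.3 CPM in siWdr5, 18.0 and 20.8 CPM in siBard1, 14.4 and 9.07 CPM in siBrca1 and 30.5 and 29.1 CPM in the nt control. Bard1 was at 65.2% of the nt control in the libraries labelled siBard1 (log2 difference -0.62 ± 0.19, limma, adjusted p = 0.042), at 49.1% in siWdr5 and at 39.5% in siBrca1, and both siWdr5 libraries lay below both siBard1 libraries. The Bard1 difference between the knockdowns, -0.41 ± 0.19, had a 95% interval from -0.81 to -0.0044 and did not pass (limma, adjusted p = 0.19, and 0.046 in a fit of the 4 libraries alone). Bard1 mRNA therefore does not tell the siBard1 libraries from the other knockdowns, and siBard1 below means the libraries labelled so, in every direction given. Brca1, which encodes the partner of BARD1, had 40.5 and 48.4 CPM in siWdr5 and 57.8 and 66.1 CPM in siBard1, a difference of -0.48 ± 0.22 that did not pass (limma, adjusted p = 0.18, and 0.0020 in the fit of the 4 libraries alone).

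Across the 14028 genes, 288 were called, which is 2.05% of those tested. Of these, 165 were higher in siWdr5 (1.18%) and 123 were lower (0.877%). With no fold limit, 680 genes passed as higher (4.85%) and 530 as lower (3.78%). The median difference over all genes tested was -0.00032, the middle 50% of genes lay between -0.22 and 0.20, and the median SE was 0.15. For all 288 called genes the siWdr5 libraries did not overlap the siBard1 libraries. Over all genes tested, both siWdr5 libraries lay above both siBard1 libraries for 29.5% and below both for 28.1%. A call needs a difference that is large for the spread, so the lack of overlap follows largely from the choice of genes. For such genes, leaving out 1 library cannot reverse the direction. Called genes had a lower level than the rest, since 140 of the 288 had a mean under 2 log2 CPM over the 16 libraries, against 2986 of all 14028 genes tested. Leaving out 1 library reduced the number of calls to 214 without siBard1 library 1, 139 without siBard1 library 2, 112 without siWdr5 library 1 and 117 without siWdr5 library 2. Of the 288 genes, 69 stayed called in all 4 of those fits, and the direction of all 288 was kept in every alternative that was run. Of the 1210 genes that passed at any fold, 131 passed in all 4 of those fits and 499 in none, and of 228 such members of the gene lists below, 41 passed in all 4 and 64 in none.

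**Figure D1:**
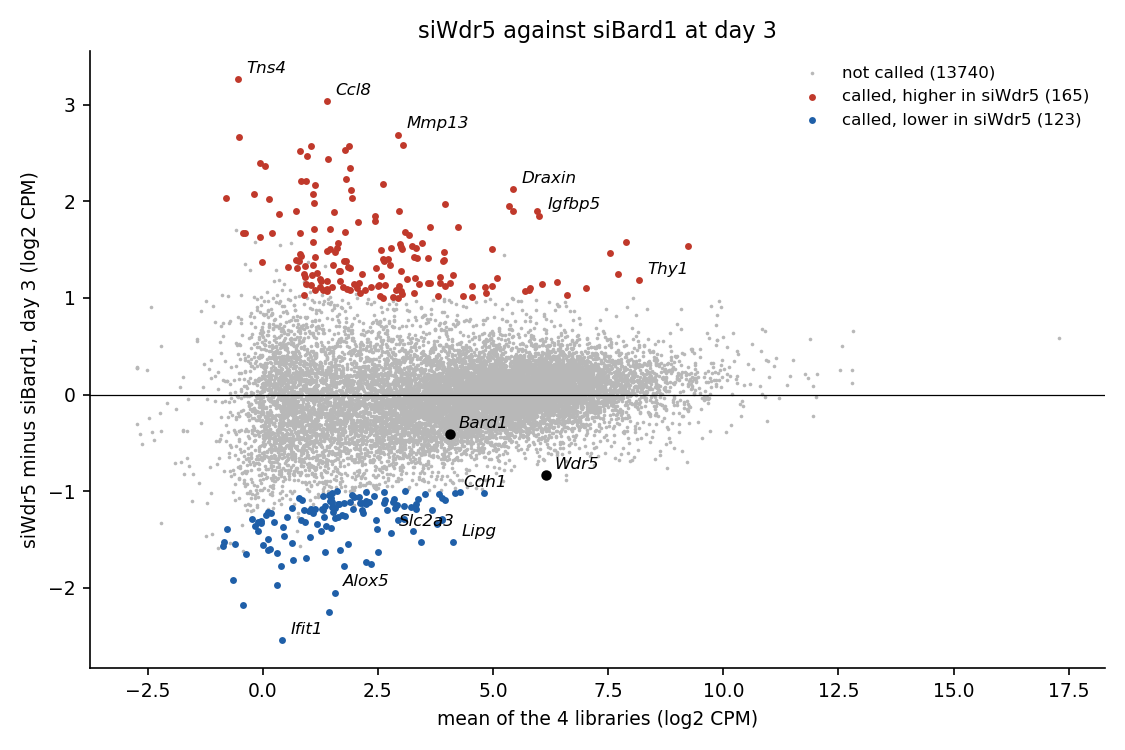
Difference between siWdr5 and siBard1 at day 3 (vertical axis, log2 CPM, positive is higher in siWdr5) against the mean of the 4 libraries (horizontal axis, log2 CPM) for the 14028 genes tested; red and blue points are the 165 and 123 called genes and black points are the targets. Wdr5 and Bard1 sit below 0 and are not called, and most of the largest differences lie at low levels.

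The 15 largest rises included a focal adhesion gene, a chemokine and 2 matrix metalloproteinases. Tns4, which encodes a tensin of focal adhesions, had 1.69 and 2.72 CPM in siWdr5 against 0.206 and 0.240 CPM in siBard1, which is 25 and 39 reads against 1 and 2 reads. The ratio of summed reads was 23.0, with an exact 95% interval of 7.51 to 114 that covers counting error only, and the fitted log2 difference was 3.27 ± 0.44 (limma, adjusted p = 0.00072). Ccl8, a monocyte-attracting chemokine, had 6.23 and 9.03 CPM in siWdr5 and 0.907 and 0.916 CPM in siBard1, a log2 difference of 3.04 ± 0.31 (limma, adjusted p = 0.0001). Mmp13, an interstitial collagenase, had 16.6 and 23.1 CPM against 2.66 and 3.46 CPM, a log2 difference of 2.69 ± 0.31 (limma, adjusted p = 0.00022). The nt control had 0.400 and 0.307 CPM of Tns4, 0.598 and 0.593 CPM of Ccl8 and 5.22 and 3.96 CPM of Mmp13, and in siBrca1 the highest library had 0.800, 1.61 and 4.49 CPM, so that all 3 genes were highest in siWdr5 among the day 3 groups.

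Matrix and adhesion genes among the rises were Col6a5, an alpha chain of collagen VI (2.57 ± 0.34), Mmp10, a stromelysin (2.36 ± 0.43), Gjb2, the gap junction protein connexin 26 (2.40 ± 0.41), and Selp, the adhesion receptor P-selectin (2.53 ± 0.28). Selp had 9.03 and 7.64 CPM in siWdr5, 1.68 and 1.23 CPM in siBard1 and 0.664 and 0.650 CPM in the nt control, so that siBard1 lay between the nt control and siWdr5. An antisense gene, Gm16548, shares 14.1% of the Selp exon bases in GENCODE vM21, and whether counting used strand was not given in the sources used here. Complement C4b rose by 2.35 ± 0.24, from 1.54 and 1.75 CPM in siBard1 to 8.28 and 8.43 CPM in siWdr5. Mcpt8, a basophil and mast cell protease (2.58 ± 0.34), Hbb-y, an embryonic haemoglobin chain (2.23 ± 0.44), and Upk3b, a uroplakin of mesothelium (2.59 ± 0.37), are markers of cells other than fibroblasts. Trp63, the p63 transcription factor of stratified epithelium (2.47 ± 0.34), had 4.61 and 4.58 CPM in siWdr5, 0.907 and 0.760 CPM in siBard1 and 1.32 and 1.39 CPM in the nt control. Steap4, a metalloreductase (2.44 ± 0.28), Aadac, a microsomal esterase (2.52 ± 0.36), and Prr9, a proline-rich protein of cornified epithelium (2.66 ± 0.48), completed the list. By limma, 11 of the 15 rises stayed called without any 1 of the 4 libraries. Prr9, Gjb2 and Mmp10 had 3 or fewer reads in a siBard1 library, and their ratios of summed reads were 11 (exact 95% interval 4.41 to 35.2), 6.89 (3.51 to 15) and 6.37 (3.43 to 12.9). Prr9 had an adjusted p of 0.055, 0.069 and 0.072 without siBard1 library 2, siWdr5 library 1 and siWdr5 library 2, and Gjb2 one of 0.063 and 0.061 without siWdr5 library 1 and siWdr5 library 2. Mmp10 had an adjusted p of 0.092 without siWdr5 library 2, and Hbb-y one of 0.052 to 0.11 in the 4 fits.

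**Figure D2:**
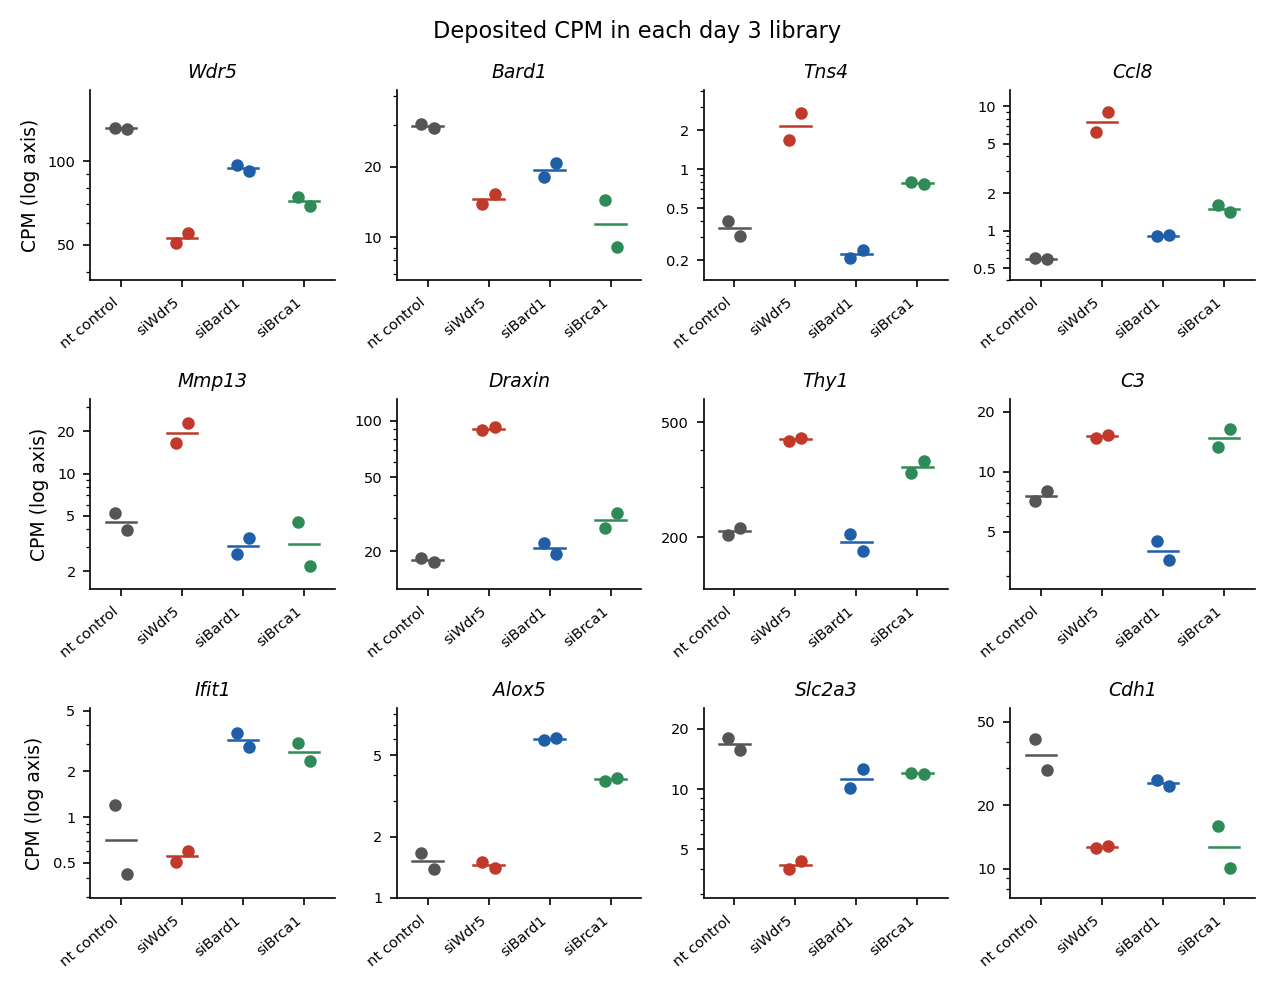
Deposited CPM (log axis, scaled for each gene) of 12 genes in the 8 day 3 libraries; each point is 1 library and each bar is the mean of the 2 log2 values of a group. Tns4, Ccl8, Mmp13 and Draxin are highest in siWdr5, Alox5 is highest in siBard1, Ifit1 is high in siBard1 and siBrca1, and Slc2a3 is lowest in siWdr5.

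The largest falls were smaller than the largest rises, and 12 of the 15 in either direction had a mean under 2 log2 CPM. Ifit1, an interferon-induced protein that binds viral RNA, had 0.510 and 0.601 CPM in siWdr5, 3.57 and 2.89 CPM in siBard1 and 1.19 and 0.421 CPM in the nt control, a log2 difference between the knockdowns of -2.54 ± 0.43 (limma, adjusted p = 0.0034). Alox5, the lipoxygenase that starts leukotriene synthesis, had 1.5 and 1.40 CPM in siWdr5, 5.95 and 6.06 CPM in siBard1 and 1.65 and 1.39 CPM in the nt control (-2.05 ± 0.24, limma, adjusted p = 0.00029). For both genes the siWdr5 and nt control libraries overlapped and the siBard1 libraries stood above them, as did those of siBrca1, with 3.09 and 2.32 CPM of Ifit1 and 3.75 and 3.86 CPM of Alox5. Mlkl, the pore-forming effector of necroptosis, had 4.12 and 2.53 CPM against 9.25 and 10.8 CPM in siBard1 (-1.63 ± 0.23, limma, adjusted p = 0.00092). F2rl1, the protease-activated receptor PAR2, showed the other arrangement, with 3.37 and 2.26 CPM in siWdr5, 9.81 and 8.81 CPM in siBard1 and 11.2 and 9.72 CPM in the nt control (-1.75 ± 0.26, limma, adjusted p = 0.0011).

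The other 11 of the 15 largest falls ranged from -2.25 for Rny1 to -1.64 for Ifit3, a second interferon-induced protein. Rny1, a Y RNA, Gm22973, an annotated small nuclear RNA, and Snord13, a small nucleolar RNA, are short structured RNAs. Rny1 had 4.27 and 8.09 CPM and Gm22973 5.60 and 13.3 CPM in the 2 siBard1 libraries, which differed from each other, and Snord13 had 1.33 and 1.44 CPM. Runx3, a RUNX transcription factor, had 5.46 and 1.49 CPM in siBard1 and Pcdhac2, a clustered protocadherin, 11.1 and 3.57 CPM, so that siBard1 library 1 carried their falls. Without siBard1 library 1, limma gave adjusted p = 0.27 for Runx3 and 0.23 for Pcdhac2, whose exon bases are all shared with other genes of the protocadherin cluster. Ppp2r2c, a regulatory subunit of protein phosphatase 2A (-2.18 ± 0.52), Ccdc39, which assembles motile cilia (-1.92 ± 0.37), and Snord13 had 3 or fewer reads in a siWdr5 library. The ratios of summed reads, siBard1 over siWdr5, were 6.37 (exact 95% interval 2.87 to 16.7) for Ppp2r2c, 5.89 (2.47 to 17.0) for Ccdc39 and 3.90 (1.93 to 8.73) for Snord13. Lypd6, a Wnt co-receptor modulator (-1.78 ± 0.32), Cacng8, a glutamate receptor auxiliary subunit (-1.69 ± 0.29), and the long noncoding RNA Gm12603 (-1.97 ± 0.39) were the others. By limma, 3 of the 15 falls (Alox5, F2rl1 and Mlkl) stayed called without any 1 of the 4 libraries, and without siWdr5 library 1 the adjusted p was 0.071 for Ifit1, 0.095 for Rny1, 0.21 for Ppp2r2c and Gm22973, 0.12 for Gm12603, 0.068 for Ccdc39, 0.077 for Lypd6 and Cacng8, 0.19 for Snord13 and 0.20 for Ifit3. Of the 15 falls, 5, 8, 12 and 5 lost the call without siBard1 library 1, siBard1 library 2, siWdr5 library 1 and siWdr5 library 2, in that order.

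The nt control shows on which side of it each knockdown lay, and both differences share its 2 libraries. Among the 165 genes higher in siWdr5, the nt control mean lay between the 2 knockdowns for 85, below both for 77 and above both for 3. Their median difference from the nt control was 1.45 in siWdr5 and -0.06 in siBard1. Among the 123 genes lower in siWdr5, the nt control mean lay between the knockdowns for 84, above both for 35 and below both for 4, with median differences from the nt control of -0.88 in siWdr5 and 0.40 in siBard1. siWdr5 was the knockdown farther from the nt control for 144 of the 165 (87.3%) and for 78 of the 123 (63.4%). Over all 14028 genes tested it was so for 9034 (64.4%), near the share among the 123. The nt control mean lay between the knockdowns for 51.5% of the 165 and 68.3% of the 123, against 22.7% of all genes tested. A gene called for a large gap between the knockdowns leaves more room for the nt control inside it, so these positions and medians are partly set by the call.

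**Figure D3:**
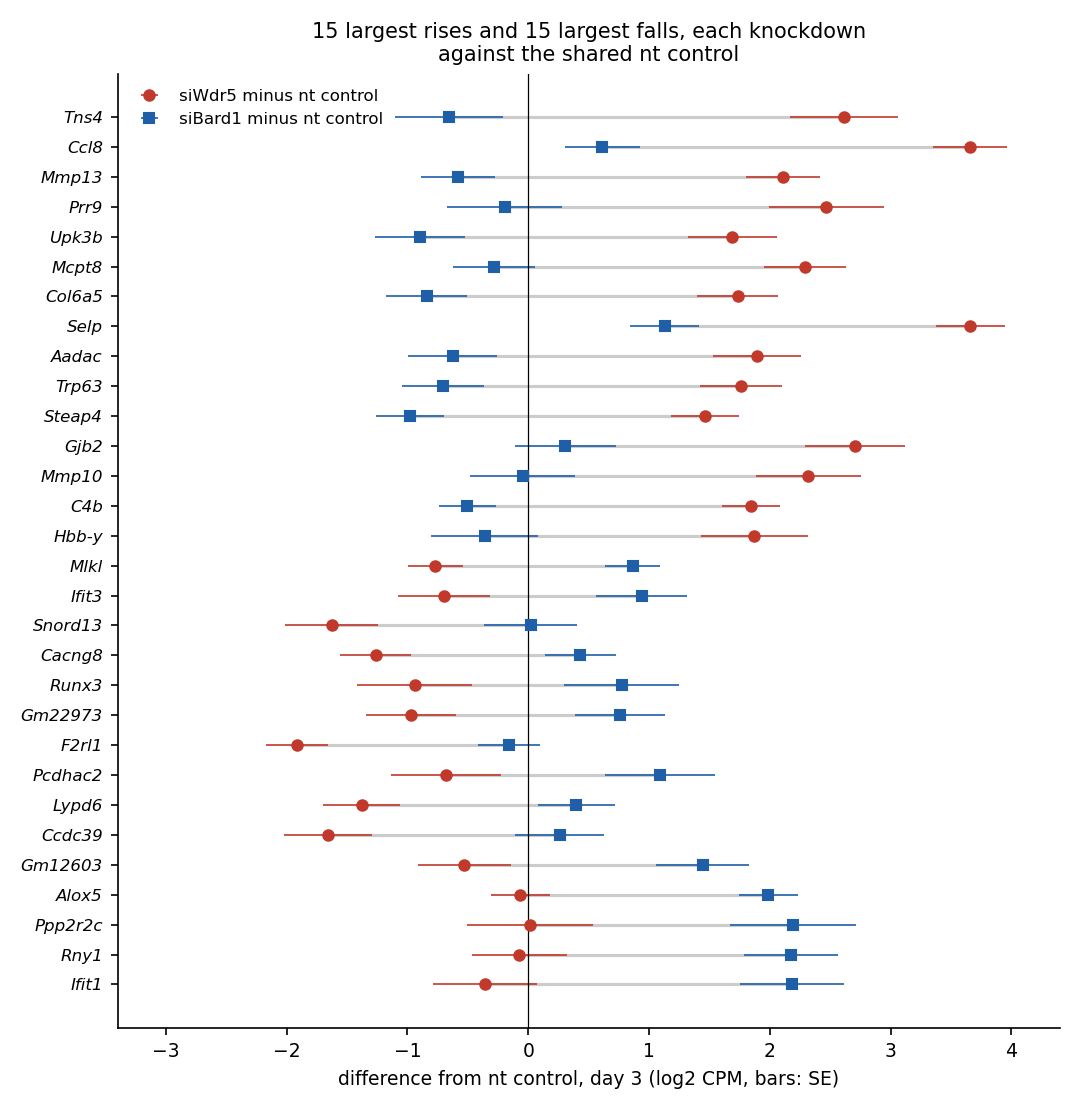
Difference from the nt control at day 3 (horizontal axis, log2 CPM) of siWdr5 (red circles) and siBard1 (blue squares) for the 15 largest rises and 15 largest falls, with bars for the SE of limma's fit and grey lines joining the knockdowns of a gene. For all 15 rises siWdr5 lies to the right of 0, and for Ifit1, Rny1, Ppp2r2c and Alox5 siWdr5 lies near 0 while siBard1 is near 2.

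Many matrix genes were higher in siWdr5. Of 33 collagen genes tested, 16 passed as higher (48.5%, against 4.85% of all genes tested) and 1 as lower, and their median difference was 0.53. Col6a3, another alpha chain of collagen VI, had 1148 and 1182 CPM in siWdr5, 688 and 556 CPM in siBard1 and 702 and 725 CPM in the nt control (0.91 ± 0.13, limma, adjusted p = 0.001). Col16a1 (0.96), Col23a1 (0.98), Col15a1 (1.11) and Col28a1 (1.15), which encode fibril-associated, transmembrane, basement membrane and beaded collagens, also passed. Of 45 genes of matrix glycoproteins and proteoglycans, 16 passed as higher (35.6%) and 1 as lower, with a median of 0.49. Fbln2, an elastic fibre protein, had 1302 and 1375 CPM in siWdr5, 770 and 607 CPM in siBard1 and 384 and 469 CPM in the nt control (0.97 ± 0.14, limma, adjusted p = 0.0011), so that both knockdowns were above the nt control and siWdr5 the more so. Tgfbi, a secreted adhesion protein, had 181 and 199 CPM against 96.1 and 80.9 CPM, with 109 and 112 CPM in the nt control (1.11 ± 0.12, limma, adjusted p = 0.00018). Comp (1.87), Tnxb (1.42), Spon2 (1.12) and Fmod (0.92) were the other members with the largest differences. Without siBard1 library 1, siBard1 library 2, siWdr5 library 1 and siWdr5 library 2, in that order, 11, 6, 3 and 4 collagen genes and 15, 9, 7 and 5 glycoprotein genes passed as higher.

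Several genes of the proteases that cut the matrix passed as higher as well. Of 34 metalloproteinase and inhibitor genes tested, 31 had a positive difference, 14 passed as higher (41.2%) and none as lower, and the median was 0.35. Besides Mmp13 and Mmp10, Mmp3, another stromelysin, had 11.5 and 11.7 CPM in siWdr5, 4.34 and 3.77 CPM in siBard1 and 11.3 and 7.55 CPM in the nt control (1.52 ± 0.26, limma, adjusted p = 0.0034). The nt control lay closer to siWdr5 for Mmp3 and closer to siBard1 for Mmp10 and Mmp13. Adamts15, an aggrecanase (1.56 ± 0.20), Adamts2, the procollagen N-proteinase (1.11 ± 0.12), and Adam12, a membrane-bound sheddase (0.98 ± 0.12), were the next in size, and the first 2 were called in all 4 fits that left out a library. Mmp3 lost its call without siWdr5 library 1 (limma, adjusted p = 0.071), siWdr5 library 2 (0.065) or siBard1 library 2 (0.065). In the list, 10, 7, 7 and 5 genes passed as higher without siBard1 libraries 1 and 2 and siWdr5 libraries 1 and 2.

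Mmp13, Mmp3 and Mmp10 are neighbours on chromosome 9, within chr9:7272514-7510240, and were the only 3 genes tested in that span. The 100 bases before each start site (RefSeq, GRCm38.p6, plus strand) are shown because all 3 genes were called higher, with the match to the AP-1 motif TGANTCA, searched on both strands, in capitals.
Mmp13, chr9:7272414-7272513: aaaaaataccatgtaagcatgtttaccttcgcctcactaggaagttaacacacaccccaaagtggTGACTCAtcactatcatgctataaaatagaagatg
Mmp3, chr9:7445722-7445821: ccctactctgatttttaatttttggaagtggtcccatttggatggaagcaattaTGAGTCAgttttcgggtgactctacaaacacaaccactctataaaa
Mmp10, chr9:7502242-7502341: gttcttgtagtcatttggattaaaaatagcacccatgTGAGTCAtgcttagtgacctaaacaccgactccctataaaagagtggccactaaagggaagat
Each had 1 match in the 250 bases before its start, ending 28, 39 and 56 bases before it. The motif occurred in 6.87% of 27025 promoters of that length, in 4.24% of the 10195 matched promoters of genes tested, in 18 of 111 matched promoters of genes called higher (16.2%) and in 4 of 78 of genes called lower (5.13%). Jun had 101 and 103 CPM in siWdr5 against 79.1 and 63.8 CPM in siBard1. Among 25 AP-1 and immediate early genes, Jun (0.52) and Junb (0.52) passed as higher (8%, against 4.85% of all genes tested) and none as lower. Of these genes, 3, 0, 0 and 0 passed as higher without siBard1 libraries 1 and 2 and siWdr5 libraries 1 and 2, and by limma the last 3 fits gave adjusted p of 0.23, 0.17 and 0.15 for Jun and 0.23, 0.17 and 0.14 for Junb.

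Chemokine, cytokine and complement genes held many calls. Of 38 chemokine and cytokine genes tested, 14 passed as higher and none as lower, 7 were called higher (18.4%, against 1.18% of all genes tested), and the median was 0.41. Ppbp, a platelet and neutrophil chemokine precursor, had 11.8 and 14.3 CPM in siWdr5, 2.66 and 3.10 CPM in siBard1 and 1.26 and 1.39 CPM in the nt control (2.18 ± 0.23, limma, adjusted p = 0.00015). Ccl2, which attracts monocytes, had 42.4 and 50.8 CPM against 20.5 and 22.0 CPM (1.13 ± 0.13), and Ccl7, of the same chemokine cluster, 74.1 and 87.2 CPM against 39.9 and 36.0 CPM (1.09 ± 0.12). Cxcl1, a neutrophil chemokine (1.16 ± 0.19), Tnfsf11, the osteoclast factor RANKL (1.12 ± 0.22), and Il1r1, the interleukin 1 receptor (1.03), were also called. For Ccl8, Ppbp, Ccl2, Ccl7 and Cxcl1 the nt control lay below both knockdowns. Called genes again lay side by side, with Ccl2, Ccl7 and Ccl8 within 81.2 kb of chromosome 11 and Ppbp and Cxcl1 within 125 kb of chromosome 5. The number of these genes that passed as higher was 9, 7, 9 and 7 without siBard1 libraries 1 and 2 and siWdr5 libraries 1 and 2, and Ccl8 and Ppbp stayed called in all 4 fits. Tnfsf11 passed in none of them (limma, adjusted p from 0.051 to 0.10), and Cxcl1 had 0.057 without siBard1 library 2 and 0.076 without siWdr5 library 2.

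In the complement and coagulation list, 6 of 25 genes were called higher (24.0%) and F2rl1 alone was called lower. C3, the central complement protein, had 14.8 and 15.3 CPM in siWdr5, 4.48 and 3.62 CPM in siBard1 and 7.13 and 8.01 CPM in the nt control (1.90 ± 0.18, limma, adjusted p = 8.2e-05). The nt control of C3 lay between the knockdowns. F5, coagulation factor V and the gene next to Selp on chromosome 1, rose by 1.71 ± 0.28. Clu, the secreted chaperone clusterin, was also called (1.02). Markers of leukocytes are given beside these lists. Of 10 fixed leukocyte markers, Ptprc, Aif1, C1qa, C1qc and Itgam are not in the table, Adgre1, C1qb and Tyrobp had 3 or fewer reads in all 4 libraries, and Csf1r, the receptor of macrophage colony-stimulating factor, was called (4.99 and 5.45 against 2.31 and 2.58 CPM, difference 1.09 ± 0.25). Csf1r lost its call in each of the 4 fits that left out a library (limma, adjusted p from 0.080 to 0.13). The summed leukocyte markers were 10.4 and 11.5 CPM in siWdr5, 8.74 and 7.44 CPM in siBard1 and 6.42 and 6.67 CPM in the nt control, and their part in the result was not tested. In bulk libraries, fewer cells of a type and less RNA per cell cannot be told apart.

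Some interferon-stimulated genes were among those lower in siWdr5. Of 67 listed, 58 were in the table and 44 were tested, of which 7 passed as lower in siWdr5 (15.9%, against 3.78% of all genes tested), 1 as higher, and the median was -0.22. Ifit2 had 7.72 and 9.56 CPM in siWdr5, 15.8 and 14.4 CPM in siBard1 and 8.12 and 7.44 CPM in the nt control (-0.81 ± 0.17, limma, adjusted p = 0.011). Ifit3 had 0.572 and 0.866 CPM in siWdr5, 2.45 and 1.95 CPM in siBard1 and 1.59 and 0.821 CPM in the nt control. Samd9l, an antiviral helicase-like protein, had 3.62 and 2.39 CPM, 5.81 and 7.77 CPM and 3.24 and 2.99 CPM in the same order (-1.19 ± 0.25, limma, adjusted p = 0.012). For these 3 genes and Ifit1, the siWdr5 and nt control libraries overlapped, and both siBard1 libraries stood above both. H2-K1, a class I histocompatibility antigen (-0.86 ± 0.20), had its nt control between the siWdr5 and siBard1 means, and Ifi27 (-0.92 ± 0.26) and Bst2, the tetherin of enveloped viruses (-0.80), passed as well. Ifit3 and H2-K1 have near-identical relatives with which reads can be shared. Lgals9, galectin 9, was the 1 gene that passed as higher (0.66), and the signalling genes Irf9 (-0.34) and Irf7 (-0.21) did not pass. Without siBard1 libraries 1 and 2 and siWdr5 libraries 1 and 2, 2, 3, 1 and 2 of these genes passed as lower. The 150 bases before the start of Ifit1 and Ifit3, neighbours on chromosome 19, are shown with matches to the interferon-stimulated response element (ISRE, searched here as GAAA, any 2 bases, then GAAA), on either strand, in capitals.
Ifit1, chr19:34640739-34640888: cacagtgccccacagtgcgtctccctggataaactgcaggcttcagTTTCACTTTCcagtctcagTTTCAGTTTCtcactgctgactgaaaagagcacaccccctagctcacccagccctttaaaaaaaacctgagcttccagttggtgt
Ifit3, chr19:34583379-34583528: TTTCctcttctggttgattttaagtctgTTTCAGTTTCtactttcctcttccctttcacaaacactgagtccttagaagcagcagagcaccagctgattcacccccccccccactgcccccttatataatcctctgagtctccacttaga
Both had 2 matches in 250 bases, and 1 match of Ifit3 is cut by the edge of the stretch shown. The motif was in 3.04% of all promoters, in 2.44% of the matched promoters of genes tested and in 13 of the 36 of the list (36.1%). It was in 5 of the 78 matched promoters of genes called lower (6.41%) and in 7 of the 111 of genes called higher (6.31%).

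Several epithelial genes were lower in siWdr5. Of 38 tested, 5 were called lower (13.2%, against 0.877% of all genes tested), 2 passed as higher, and the median was -0.27. Cdh1, which encodes E-cadherin, had 12.6 and 12.7 CPM in siWdr5, 26.5 and 24.9 CPM in siBard1 and 41.5 and 29.4 CPM in the nt control (-1.02 ± 0.20, limma, adjusted p = 0.0082). Epcam, an epithelial adhesion molecule, had 2.19 and 2.06 CPM, 7.29 and 5.28 CPM and 11.1 and 5.90 CPM in the same order (-1.55 ± 0.36, limma, adjusted p = 0.018). St14, the membrane protease matriptase (-1.29 ± 0.23), and its inhibitors Spint1 (-1.30 ± 0.27) and Spint2 (-1.10 ± 0.22) were the other 3, and for 4 of the 5 (not St14) the nt control mean lay above both knockdowns. Ehf, an epithelial ETS factor, was called in the opposite direction (10.2 and 9.56 against 3.22 and 3.83 CPM, 1.49 ± 0.31), and Jup, plakoglobin, passed as higher (0.45). Ehf passed in none of the fits that left out a library (limma, adjusted p from 0.077 to 0.13). Krt8 had 2.13 and 2.46 CPM against 7.36 and 3.36 CPM and did not pass (-1.12), nor did Ocln (-1.02), Krt18 (0.21), Krt19 (0.17), Tjp1 (0.07) or Dsp (0.51). Without siBard1 libraries 1 and 2 and siWdr5 libraries 1 and 2, 0, 2, 0 and 0 of the epithelial genes passed as lower, and Cdh1 had an adjusted p of 0.068 to 0.12 by limma in those fits.

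A few mesenchymal regulators and fibroblast surface genes passed as higher in siWdr5. Of 30 mesenchymal transcription factors tested, 3 passed as higher (10.0%), none as lower, and the median was 0.19. Snai1, a repressor of Cdh1, had 100 and 99.3 CPM in siWdr5, 71.5 and 48.4 CPM in siBard1 and 46.2 and 43.8 CPM in the nt control (0.76 ± 0.15, limma, adjusted p = 0.0069). Its relative Snai2 (0.72 ± 0.18) and the homeobox factor Prrx2 (0.44 ± 0.13) also passed, and Zeb1 (-0.02), Zeb2 (0.23), Twist1 (0.07) and Prrx1 (-0.02) did not. Of these factors, 3, 0, 0 and 0 passed as higher without siBard1 libraries 1 and 2 and siWdr5 libraries 1 and 2, Snai1 had an adjusted p of 0.064, 0.11 and 0.085 by limma in the last 3 fits, and the median was 0.06 without siBard1 library 2. Among 22 fibroblast surface markers and cadherins, 7 passed as higher (31.8%) and none as lower, with a median of 0.26, and 6, 3, 3 and 3 passed in the same 4 fits. Thy1, a fibroblast surface glycoprotein, had 432 and 441 CPM in siWdr5, 206 and 180 CPM in siBard1 and 204 and 216 CPM in the nt control (1.18 ± 0.11, limma, adjusted p = 4.3e-05), and it stayed called without any 1 library. The siBard1 and nt control libraries overlapped for Thy1, whereas Cdh11, the mesenchymal cadherin, had 423 and 458, 243 and 235 and 219 and 219 CPM in the same order (0.89 ± 0.10). The proteoglycan genes Dcn (1.21 ± 0.14) and Lum (1.24 ± 0.34), adjacent on chromosome 10, were called, and Lum rested on siBard1 library 2, with 16.8 and 7.83 CPM in siBard1 (limma, adjusted p = 0.39 without that library, and 0.20 and 0.23 without siWdr5 libraries 1 and 2).

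None of the 4 induced factors passed between the knockdowns, and few genes of the pluripotency network did. Pou5f1, which encodes Oct4, had 162 and 142 CPM in siWdr5, 137 and 92.5 CPM in siBard1 and 219 and 246 CPM in the nt control (0.43, limma, adjusted p = 0.13). Sox2 (0.40), Klf4 (0.41) and Myc (0.30) had differences of similar size and did not pass, and reads of the introduced and the endogenous copies were counted together. For all 4 factors both knockdowns lay below the nt control, and siBard1 library 2 was the lowest of the 4 libraries. Of 24 pluripotency genes tested, Sall4, a zinc finger factor of early reprogramming, passed as lower (1.63 and 1.2 CPM in siWdr5, 3.78 and 2.84 CPM in siBard1, 8.38 and 6.87 CPM in the nt control, -1.23 ± 0.26, limma, adjusted p = 0.012) and Alpl, alkaline phosphatase, as higher (0.76 ± 0.15). The median of the list was 0.01. Nanog had 0.323 and 0.203 CPM against 0.277 and 0.656 CPM, which is near the level of 3 reads, and Esrrb, Dppa3 and Lin28a were at or near it in these libraries. Lin28b (-0.76), Nr5a2 (-0.92), Sall1 (-0.75), Tet1 (-0.51) and Mycn (0.83) did not pass. By limma, the Sall4 difference had an adjusted p of 0.083, 0.049, 0.054 and 0.11 without siBard1 library 1, siBard1 library 2, siWdr5 library 1 and siWdr5 library 2. Without siBard1 library 1, 2 of the 4 induced factors passed as higher.

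Most genes of cell division and DNA replication had a negative difference, and few passed. Over all genes tested, 7019 of 14028 had a negative difference and 3.78% passed as lower. All 52 replication-dependent histone genes tested had a negative difference, from -0.85 to -0.08 with a median of -0.43, and none passed. The near-identical copies of these genes share reads, so the 52 values are not separate measurements. Of 40 mitosis genes 39 had a negative difference, with a median of -0.43, and Bub1 (-0.89 ± 0.21), Knl1 (-0.82 ± 0.21), Spc25 (-0.72 ± 0.18) and Mad2l1 (-0.60 ± 0.17), which act at the kinetochore and its checkpoint, passed (10.0%). Bub1 had 19.5 and 23.7 CPM in siWdr5, 36.1 and 43.8 CPM in siBard1 and 45.1 and 42.5 CPM in the nt control. Of 45 DNA replication genes 41 had a negative difference, with a median of -0.23, and 4 passed as lower (8.89%). Among these 4 were Prim1, the primase subunit (13.1 and 15.4 against 25 and 27.5 CPM, -0.88 ± 0.17), Rfc4 (-0.84) and Gins3 (-0.69). Against the nt control the histone median was -1.19 in siWdr5 and -0.79 in siBard1. Without any 1 of the 4 libraries no mitosis gene passed, and 2, 0, 0 and 1 replication genes did without siBard1 libraries 1 and 2 and siWdr5 libraries 1 and 2.

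No gene of homologous recombination, the pathway of BARD1, passed as lower in siBard1 than in siWdr5. Of 35 homologous recombination and Fanconi genes tested, 27 had a negative difference, so were higher in siBard1, and the median was -0.29. Over all genes tested, 7019 of 14028 had a negative difference. Fancb (-0.94 ± 0.24) of the Fanconi core complex and the checkpoint kinases Chek1 (-0.68 ± 0.19) and Atr (-0.49 ± 0.13) passed as lower in siWdr5. They are 8.57% of the 35, against 3.78% of all genes tested, and none of the 35 passed as higher. Chek1 had 13.4 and 16.6 CPM in siWdr5, 23.5 and 24.1 CPM in siBard1 and 32.9 and 31.2 CPM in the nt control, and without any 1 of the 4 libraries no gene of this list passed. Of 12 BRCA1 and BARD1 partners, 10 had a negative difference and none passed, with Brca2 (-0.48) and Palb2 (-0.41) among them. On the side of WDR5, 12 of 16 other subunits of H3K4 methyltransferase complexes had a positive difference, with a median of 0.09. The methyltransferases Setd1b (117 and 104 against 74.7 and 69.1 CPM, 0.62 ± 0.12, limma, adjusted p = 0.0059) and Kmt2a (0.43 ± 0.10) passed as higher. These 2 are 12.5% of the 16, against 4.85% of all genes tested that passed as higher. With 1 library left out, the difference ranged from 0.53 to 0.70 for Setd1b and from 0.33 to 0.53 for Kmt2a. The core subunits Rbbp5 (-0.20), Ash2l (-0.01) and Dpy30 (-0.39) did not pass. Of the CDK inhibitors and D cyclins, Cdkn1c, which encodes p57 and is imprinted, had 24.9 and 25 CPM in siWdr5, 9.60 and 9.39 CPM in siBard1 and 14.4 and 16.7 CPM in the nt control (1.39 ± 0.14, limma, adjusted p = 0.00011), and an antisense gene shares 30.7% of its exon bases. Cdkn2b, which encodes p15 (0.51), and Ccnd3 (0.42) passed as higher. Of 22 p53 targets Gadd45a alone did (0.93 ± 0.24), with 19.1% of its exon bases shared with an antisense gene. This 1 gene is 4.55% of the p53 list, near the 4.85% of all genes tested that passed as higher. Leaving out 1 library gave differences of 0.40 to 0.62 for Cdkn2b, 0.24 to 0.61 for Ccnd3 and 0.79 to 1.08 for Gadd45a.

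Of the lists, that of ribosomal protein genes held the most genes that passed as lower. Of 81 cytosolic ribosomal protein genes tested, 28 passed as lower in siWdr5 (34.6%, against 3.78% of all genes tested), 1 as higher, and the median was -0.19. Rpl22l1, a paralog of Rpl22, had 18.9 and 20.4 CPM in siWdr5, 35.7 and 44.5 CPM in siBard1 and 42.4 and 44.7 CPM in the nt control (-1.02 ± 0.13, limma, adjusted p = 0.00044). Rps24, a small subunit protein, had 319 and 355 CPM, 589 and 547 CPM and 609 and 587 CPM in the same order (-0.76 ± 0.11), and Rpl7 (-0.70), Rpl35a (-0.69) and Rpl36a (-0.88) also passed as lower. For each of these named genes the siBard1 mean lay closer to the nt control than the siWdr5 mean did. These genes have many near-identical pseudogenes, so the counting of shared reads could split their values. They also have short transcripts, and over all 884 genes tested whose longest transcript was at most 1000 bases the median difference was -0.07, or -0.06 without the ribosomal protein genes. The part of transcript length in the result was not tested. Without siBard1 libraries 1 and 2 and siWdr5 libraries 1 and 2, 14, 24, 3 and 11 ribosomal protein genes passed as lower. Of 77 mitochondrial ribosomal protein genes 5 passed as lower and none as higher (median -0.12), whereas none of 55 ribosome biogenesis genes (median 0.0015) and none of 74 nuclear oxidative phosphorylation genes (-0.03) passed. All 7 mRNAs of the mitochondrial genome that were tested had a negative difference, and mt-Nd6 passed (-0.60).

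**Figure D4:**
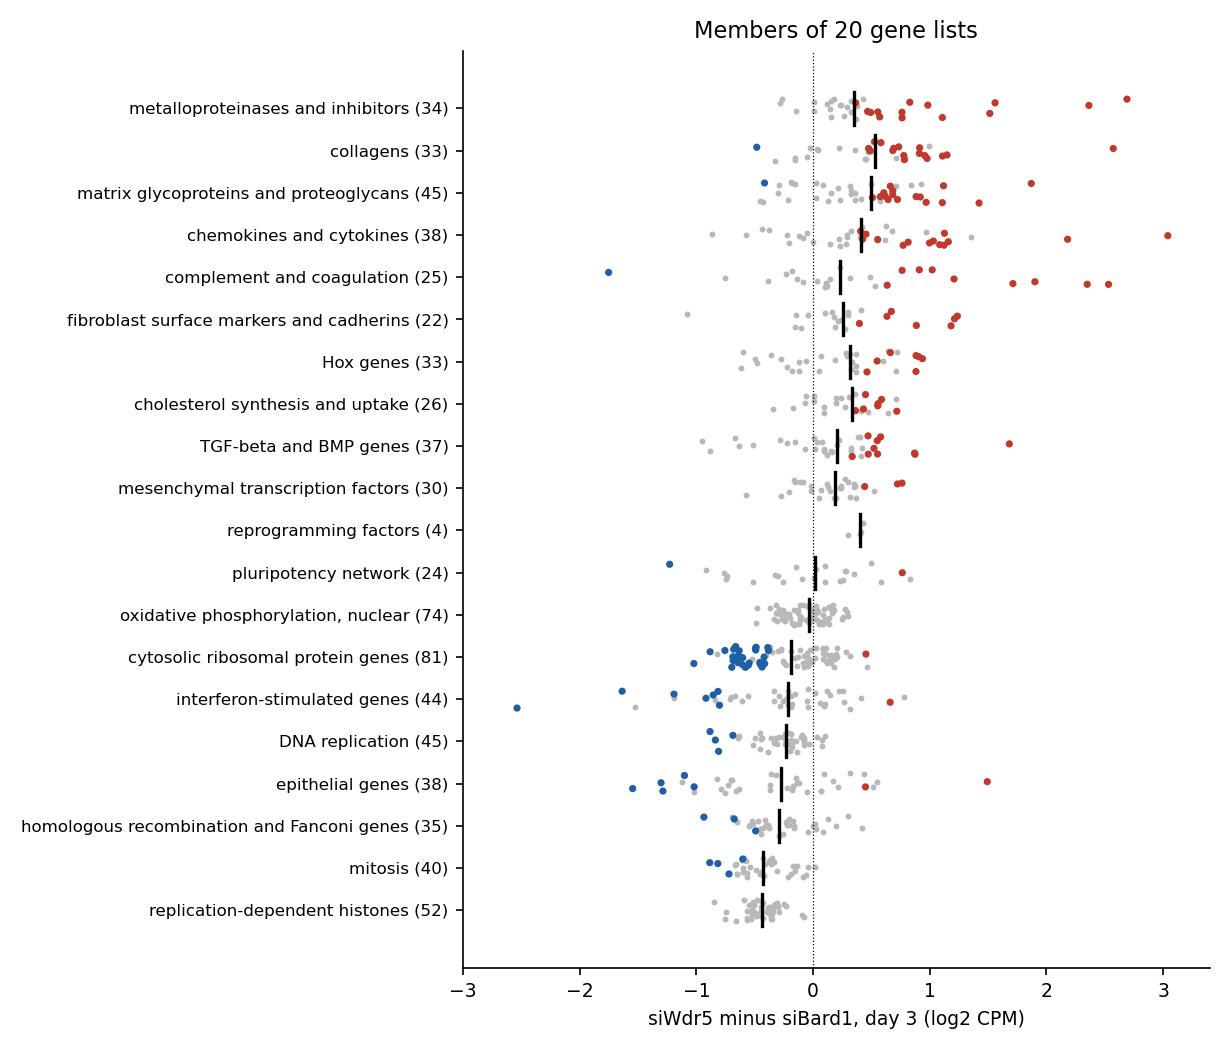
Differences between siWdr5 and siBard1 at day 3 (horizontal axis, log2 CPM) for the tested members of 20 gene lists, with the number tested in brackets; red and blue points passed as higher or lower in siWdr5 (adjusted p below 0.05), grey points did not pass, and black bars are list medians. The protease, collagen, matrix and chemokine lists extend to the right, while all 52 histone genes lie left of 0 with no coloured point.

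Growth factor pathways contributed single genes with large differences. Igfbp5, an IGF binding protein, had 119 and 124 CPM in siWdr5, 34.3 and 32.8 CPM in siBard1 and 28.3 and 28.0 CPM in the nt control (1.85 ± 0.18, limma, adjusted p = 8.8e-05). Igfbp4 had 321 and 324 CPM against 156 and 118 CPM, with 123 and 115 CPM in the nt control (1.25 ± 0.12). In both genes the siBard1 libraries lay close to the nt control and far from siWdr5. Igf2 (0.99 ± 0.24) and Igfbp3 (0.84 ± 0.23) also passed as higher, while Igfbp2 passed as lower (114 and 115 against 221 and 162 CPM, -0.72 ± 0.13). An overlapping gene of the same strand shares 62.8% of the Igf2 exon bases. With 1 library left out, the difference ranged from 0.55 to 1.43 for Igf2 and from 0.72 to 0.97 for Igfbp3. Of 30 FGF and IGF genes tested, 6 passed as higher (20%, against 4.85% of all genes tested). As lower, 2 passed (6.67%, against 3.78%). Of 37 TGF-beta and BMP genes, 10 passed as higher (27.0%) and none as lower, with a median of 0.21. Gdf10, a BMP family ligand, was called (14.4 and 16 against 4.69 and 4.76 CPM, 1.68 ± 0.19), and the BMP antagonist Nog (0.87), the matrix-bound TGF-beta regulator Ltbp2 (0.58), the procollagen C-proteinase Bmp1 (0.55) and the BMP target Id3 (0.55) passed. Tgfb1, Tgfb2 and the other members that did not pass lay between -0.95 and 0.42. Of 38 Wnt genes, 6 passed as higher (15.8%) and 2 as lower (5.26%). Dkk2, a Wnt antagonist, was called lower (7.66 and 9.29 against 20.4 and 18.3 CPM, -1.2 ± 0.18), and Fzd6, a receptor, passed as lower (-0.91). Wnt4, a ligand (0.97), and the Wnt inhibitors Nkd1 (0.72), Sfrp1 (0.64) and Dkk3 (0.64) passed as higher. Without siBard1 libraries 1 and 2 and siWdr5 libraries 1 and 2, 8, 1, 2 and 1 TGF-beta and BMP genes passed as higher.

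Some patterning and imprinted genes passed, most of them as higher. Of 33 Hox genes tested, 7 passed as higher (21.2%), none as lower, and the median was 0.32. Hoxc10 had 11.5 and 12.5 CPM against 6.73 and 5.8 CPM (0.94 ± 0.20), and Hoxc9 (0.88), Hoxb6 (0.88), Hoxb5 (0.91) and Hoxc8 (0.55) passed with it. Hoxb3 also passed (0.66), but an antisense gene shares 52.9% of its exon bases. Of 21 imprinted growth genes, 8 passed as higher and 2 as lower, with H19, a noncoding RNA beside Igf2, at 1199 and 1294 CPM against 788 and 630 CPM (0.82 ± 0.12), Dlk1, a Notch family ligand (0.99), Plagl1 (0.81) and, in the other direction, Sgce (-0.91). Without siBard1 libraries 1 and 2 and siWdr5 libraries 1 and 2, 2, 0, 0 and 0 Hox genes and 6, 2, 2 and 3 imprinted genes passed as higher. Draxin, a secreted axon guidance protein, had 89.3 and 92.2 CPM in siWdr5, 22.2 and 19.5 CPM in siBard1 and 18.3 and 17.6 CPM in the nt control (2.13 ± 0.13, limma, adjusted p = 2.3e-06).

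Among metabolic genes, some of cholesterol synthesis passed as higher. Of 26 cholesterol synthesis and uptake genes, 7 passed as higher (26.9%), none as lower, and the median was 0.34. Hsd17b7, a reductase of sterol synthesis, had 53.1 and 53.6 CPM in siWdr5, 36.7 and 28.7 CPM in siBard1 and 30.7 and 30.4 CPM in the nt control (0.72 ± 0.15), and Hmgcs1, which makes HMG-CoA (0.59), Cyp51 (0.55), Fdft1 (0.45) and the regulator Srebf2 (0.43) passed. Antisense genes share 12.1% and 18.3% of the exon bases of Hmgcs1 and Fdft1. The list had 9, 0, 0 and 0 genes past the test as higher without siBard1 libraries 1 and 2 and siWdr5 libraries 1 and 2. Slc2a3, the glucose transporter GLUT3, had 3.99 and 4.38 CPM in siWdr5, 10.1 and 12.6 CPM in siBard1 and 18.0 and 15.6 CPM in the nt control (-1.43 ± 0.17, limma, adjusted p = 0.0003), and it stayed called without any 1 library. No other member of the 37 glycolysis and hypoxia genes passed as lower, 1 passed as higher, and none of 29 ATF4 and one-carbon genes passed. Apob, an apolipoprotein, was called higher (4.99 and 4.38 against 1.12 and 0.968 CPM, 2.17 ± 0.35), and Apoe passed as lower (-0.91).

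Markers of other cells were checked as whole lists. The 10 fibroblast markers summed to 13684 and 14217 CPM in siWdr5, 11224 and 9640 CPM in siBard1 and 7749 and 8738 CPM in the nt control. Of them, 5 passed as higher (50%, against 4.85% of all genes tested). Muscle markers summed to 144 and 144 CPM against 93.4 and 78.3 CPM, nearly all from Des (139 and 139 against 88.6 and 74.6 CPM), while Myod1, Myog, Myf5 and Ckm are not in the table. Neural markers summed to 91.2 and 91.8 CPM against 62.4 and 57.8 CPM, mostly from Tubb3 (67.4 and 68.6 against 37.8 and 31.8 CPM). Endothelial markers summed to 56.1 and 62.8 CPM against 43.6 and 51.8 CPM, with none that passed and with Cdh5 and Emcn at 3 or fewer reads in all 4 libraries. Keratinocyte and simple epithelial markers summed to 26.1 and 26.2 CPM against 45.4 and 37.6 CPM, with Trp63 higher and Cdh1 and Epcam lower. In the nt control, muscle markers summed to 34.3 and 42.9 CPM and neural markers to 81.3 and 72.5 CPM. Endothelial markers there summed to 46.5 and 44.2 CPM, and keratinocyte and simple epithelial markers to 66.4 and 45.6 CPM. The part of these cells in the differences above was not tested.

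Day 6 was measured in libraries that the day 3 comparison did not use. Wdr5 had 85.5 and 72.4 CPM in siWdr5 and 89.2 and 112 CPM in siBard1, and its difference of -0.35 did not pass (limma, adjusted p = 0.21). Bard1 had 11.9 and 13.2 CPM and 12.6 and 14.5 CPM, which overlap. At that day 54 genes were called (0.385% of 14028), 38 higher in siWdr5 (0.271%) and 16 lower (0.114%). Of the 288 genes called at day 3, 242 had the same sign at day 6 (84.0%, against 69.0% of all genes tested), and 19 were called again in the same direction, which is 6.6% of the day 3 calls and 35.2% of the day 6 calls. The 288 genes were chosen for their day 3 difference, so its size at the 2 days is not compared over them. Ccl8 was called at both days, with 12.1 and 15.7 CPM in siWdr5 and 3.52 and 4.61 CPM in siBard1 at day 6 (1.78, limma, adjusted p = 0.014). Col6a5 was at 4.82 and 7.24 CPM against 1.41 and 1.64 CPM at day 6 (1.95), and Draxin at 137 and 171 CPM against 56.3 and 41.4 CPM (1.67). All 3 kept both siWdr5 libraries above both siBard1 libraries. The 2 genes called lower at both days were Dkk2, with 14.7 and 19.8 CPM against 41.0 and 68.9 CPM at day 6 (-1.64), and Tfap2b, a neural crest AP-2 factor, with 14.9 and 6.55 CPM against 36.8 and 41.6 CPM (-1.99). The epithelial list, with a median of -0.27 at day 3, had one of 0.01 at day 6, the metalloproteinase list one of 0.35 and then 0.58, and the collagen list one of 0.53 and then 0.64. The number of day 6 calls was 231 without siBard1 library 1, 13 without siBard1 library 2, 10 without siWdr5 library 1 and 0 without siWdr5 library 2 of that day.

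**Figure D5:**
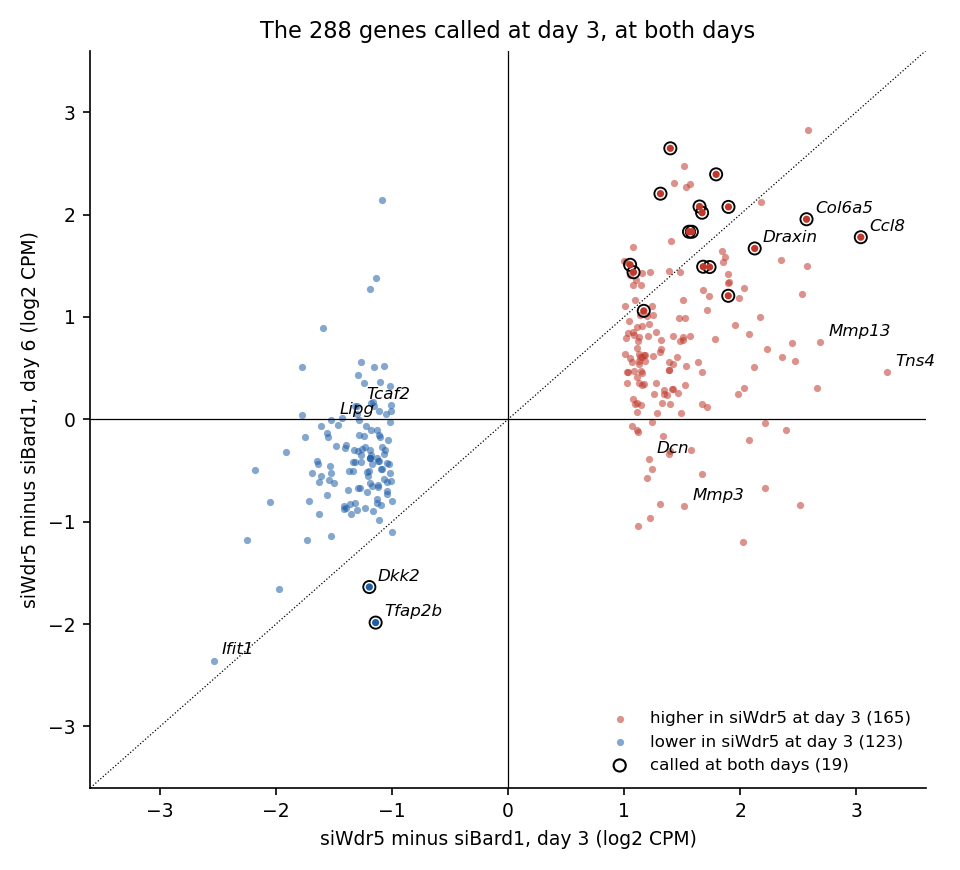
Difference between siWdr5 and siBard1 at day 3 (horizontal axis) and at day 6 (vertical axis), both in log2 CPM, for the 288 genes called at day 3; circles mark the 19 genes called at both days and the dotted line marks equal differences. The genes were chosen by the horizontal axis, which leaves a gap around 0 there, and the red points of Mmp3 and Dcn lie below 0 at day 6.

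The difference between the knockdowns itself changed between the days for few genes by the test of that change, in which 7 genes were called (0.0499% of 14028). For Lipg, endothelial lipase, siWdr5 had 9.96 and 10.8 CPM and siBard1 32.5 and 27.5 CPM at day 3, and 11.7 and 9.60 CPM and 11 and 10.3 CPM at day 6. At day 3 the nt control had 9.57 and 8.01 CPM of Lipg and siBrca1 had 27.4 and 25.9 CPM, so that siBard1 and siBrca1 stood above the other groups, and at day 6 the siWdr5 and siBard1 libraries overlapped. By limma, leaving out 1 library of either day gave 0 to 60 such calls in place of 7, with 0 without any 1 of the 4 day 3 libraries and 60 without siBard1 library 1 of day 6.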

How the data were processed

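RNA-seq of total RNA depleted of ribosomal RNA was deposited as 1 table of log2 CPM for 18990 genes in 16 libraries. Per the labels, the authors aligned reads with STAR 2.5.2b to mm10 and used edgeR 3.20.9 to make these deposited log2 CPM values. The read counter, its annotation, its use of strand and any filter on genes are not given in the sources used here. The values step in whole reads (100% of values within 0.01 read of a whole number), which gave the depth of each library and showed the prior count that the values include. Libraries were grouped by their labels. For each day, limma 3.58.1 (R 4.3.3), with a trend on mean expression, was fitted to the 8 libraries of that day with 1 mean per group, for 14028 genes with a mean of at least 0 log2 CPM, two-sided and adjusted by Benjamini-Hochberg over all of them. The change between days was fitted over the 16 libraries. The fits were also run on simulated data in which every gene had the same spread beyond counting error. Those data held no library effects, so they do not bear on how the calls depend on single libraries. With 2 libraries per group, p-values measure the spread between these libraries only. Python 3.11.15 with pandas 2.3.3 made the other tables, and exon overlaps and lengths came from GENCODE vM21, in which 14018 of the genes tested were found. Intervals on read ratios cover counting error only. Named genes were the targets, the 15 largest rises and falls among called genes, up to 6 members of each list that passed, members of a few lists that did not, genes called at both days and genes whose difference changed between days. A few genes that this rule names are not reported here. The members and lists were chosen with earlier results of these data known. Alternatives covered the filter, scaling, pseudocount, trend, libraries in the fit, replicate block, read-based fit and leaving out each library, which leaves 1 library against 2 and assumes that it varies like the other groups.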

Additional observations from a re-analysis of the deposited data

Results flagged for a closer look

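For 7 genes the difference between siWdr5 and siBard1 at day 6 departed from that at day 3 by limma's test of the change over the 16 libraries, with adjusted p from 0.032 to 0.035. Calca, which encodes the neuropeptide CGRP, went from -1.35 to 2.31, a change of 3.66, with 0.447 and 0.468 CPM in siWdr5 and 0.978 and 1.38 CPM in siBard1 at day 3 and 3.65 and 5.33 CPM and 0.888 and 0.890 CPM at day 6. Lipg, endothelial lipase, changed by 1.52 and Tcaf2, a regulator of TRPM8 channels, by 1.43, because differences of -1.53 and -1.30 at day 3 were -0.00 and 0.13 at day 6. Mmp3, a stromelysin, went from 1.52 to -0.85, a change of -2.37, with 11.5 and 11.7 CPM against 4.34 and 3.77 CPM at day 3 and 95 and 78.7 CPM against 116 and 209 CPM at day 6. Postn, the matrix protein periostin, changed by -2.22, with 30.8 and 40.8 CPM against 33.6 and 27.2 CPM at day 3, which overlap, and 24.3 and 24.8 CPM against 69.9 and 137 CPM at day 6. Dcn, the proteoglycan decorin, changed by -1.60, from 1.21 to -0.39. Tgfbi, a secreted adhesion protein, changed by -1.21, from 1.11 to -0.10. By limma, the day 3 difference of Calca did not pass (adjusted p = 0.056, with 5 and 5 reads in siWdr5). Nor did the day 6 differences of Mmp3 (limma, adjusted p = 0.12) and Dcn (limma, adjusted p = 0.28).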

How the results depend on the processing

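The 3 targets and the other named genes that passed or were called, 175 followed in all, kept their direction under every alternative run. Where the libraries of a gene do not overlap, leaving out 1 library cannot reverse its direction, so the kept direction adds no support there. Of the 1092 list members that did not pass, 342 changed sign under at least 1, among them the named genes Zeb1 (-0.11 to 0.05), Prrx1 (-0.14 to 0.04), Ash2l (-0.10 to 0.08), Twist1 (-0.10 to 0.23), Tjp1 (-0.02 to 0.11) and Irf7 (-0.60 to 0.18), and 7 of 45 list medians changed sign under at least 1. The 288 calls of day 3 became 147 with a mean of at least 2 log2 CPM, 140 with a pseudocount of 1 CPM and 1210 with no minimum fold change, and 112 to 214 when 1 library was left out. The other alternatives gave 221 to 348. The 54 calls of day 6 became 201 with all 16 libraries in the fit, 122 with limma-voom on recovered reads, 0 by limma with no trend (2843 genes had an unadjusted p below 0.05 with the trend), 83 with no minimum fold change and 0 to 231 when 1 library was left out. The 7 genes whose difference changed between days became 13 with limma-voom on recovered reads, 4 with no trend and 0 to 60 when 1 library was left out. In a fit of the 4 libraries alone, the Bard1 difference of -0.41 (adjusted p = 0.046) and the Brca1 difference of -0.48 (adjusted p = 0.0020) passed by limma. The replicate differences of the 2 knockdowns correlated at r = 0.0069 at day 3 and r = 0.0030 at day 6, across genes. This correlation covers only these 2 groups and cannot tell whether libraries of the same replicate number belong together. A replicate block gave 312 calls at day 3, 108 at day 6 and 22 for the change between days, in place of 288, 54 and 7. The causes of these shifts were not tested. Depth limits genes near 3 reads, where 15 called genes had 3 or fewer reads in a compared library.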
